A study of Mus musculus with 35 samples.

Results

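Expression was compared between the hippocampus and the amygdala of A/J mice, using the arrays whose labels give the A/J strain. There were 17 such arrays of 35 in the series, 9 from hippocampus and 8 from amygdala, and the remaining 18 arrays came from the same regions of C57BL/6J mice. A/J is an inbred laboratory strain, and all mice were males of 3 to 4 months, group-housed and not tested in behavioural tasks. No mouse carried a transgene or received a treatment. Each sample was RNA from tissue punched out of frozen brain slices of 1 mouse, so the samples hold every cell type that lies within a punch. According to the methods, amygdala punches were bilateral. Hippocampal tissue came from the left side and from sections that started farther back. Region therefore cannot be told apart from side and from position along the brain. No label says which samples of the regions came from 1 animal. In such bulk tissue, fewer cells of a type and less RNA per cell cannot be told apart.

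The hippocampus is a cortical structure that serves declarative and spatial memory, and most of its neurons are glutamatergic granule cells of the dentate gyrus and pyramidal cells of the CA fields. The amygdala attaches emotional value to stimuli. Its basolateral nuclei resemble cortex and are mostly glutamatergic, whereas its central and medial nuclei arise from the ventral forebrain, are mostly GABAergic and share many transcription factors, peptides and dopamine receptors with the striatum that borders them.

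RNA was hybridized to Illumina MouseRef-8 arrays, and levels are given as log2 intensity after background correction and quantile normalization of the 17 arrays. A probe counted as detected on an array at a detection p-value below 0.01. The number of detected probes was 6312 to 10722 (median 9506) in hippocampus and 6549 to 10751 (median 9023) in amygdala, and 4 arrays (3 hippocampus and 1 amygdala) had under 7500. The first principal component (47.2% of the variance) set those 4 arrays apart from the others. The second (20.4%) separated the regions, at -1.48 to 36.2 in hippocampus and -38.5 to -8.95 in amygdala, and the 3 hippocampus arrays nearest to the amygdala were those with under 7500 detected probes. The arrays lay on 9 chips in sets that share the first digits of their IDs, called lots here although the labels name none. Lot 1 held 5 hippocampus and 4 amygdala arrays, and lot 2 held 4 and 4. Only 3 chips, with 8 of these arrays, held both regions, all in lot 1. In lot 2 no chip held A/J arrays of both regions, so there region cannot be told apart from chip. Of the 24620 probes, 9193 were detected on at least 8 of the 17 arrays and were tested with limma. A difference is hippocampus minus amygdala on the log2 scale, given with its standard error, and n is 9 hippocampus and 8 amygdala arrays throughout. Each adjusted p-value is Benjamini-Hochberg adjusted across the tested probes, and the threshold was 0.01.

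The regions differed at 772 of 9193 probes (8.4%). Of these, 376 (4.09%) were higher in hippocampus and 396 (4.31%) in amygdala. The median difference over all tested probes was 0.0103, and the median size of a difference was 0.255 over all tested probes and 1.09 over those past the threshold. Past the threshold and over 2-fold were 447 probes (4.86%), 215 (2.34%) higher in hippocampus and 232 (2.52%) in amygdala. The 9 hippocampus arrays did not overlap the 8 amygdala arrays at 359 probes (3.91%), of which 191 were higher in hippocampus and 168 in amygdala. The detection filter admits a probe that is seen in 1 region only, and such a probe had to differ: 4 probes were detected on every hippocampus array and no amygdala array, and 13 on every amygdala array and no hippocampus array. This holds for each gene below that was undetected on all arrays of 1 region, also where it is counted in a list.

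**Figure D1:**
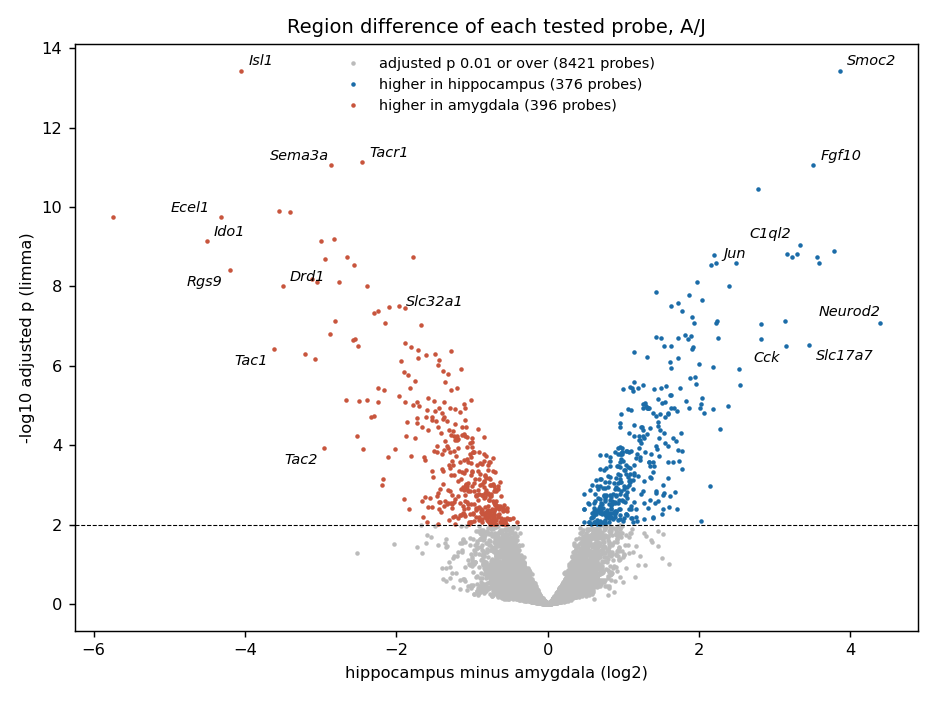
The difference of each of the 9193 tested probes (hippocampus minus amygdala, log2, x axis) is plotted against -log10 of its adjusted p-value (y axis), and the dashed line marks an adjusted p of 0.01. The 376 blue probes were higher in hippocampus and the 396 red probes in amygdala, with Neurod2 (4.39) farthest to the right and Ecel1 (-4.31) among those far to the left.

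Neurod2, a basic helix-loop-helix transcription factor of cortical excitatory neurons, had the largest difference on the hippocampal side, with levels of 8.87 to 11.15 (median 10.56) in hippocampus and 4.75 to 6.76 (median 5.52) in amygdala. The groups did not overlap, and the level was 21.0-fold higher in hippocampus (difference 4.39 ± 0.38, limma adjusted p = 8.531e-08). It was detected on 5 of 8 amygdala arrays, so the lower values lie near the background. Smoc2, a secreted calcium-binding matrix protein, was at 8.24 to 8.91 (median 8.48) in hippocampus and detected on none of the amygdala arrays. For a probe not detected in a whole region, the fold is a lower bound against the lowest level among detected probes of each array. By this bound Smoc2 was at least 7.88-fold higher in hippocampus. These sizes hold for the levels used here: in the authors' deposited log2 values the differences were 1.13 for Neurod2 and 0.37 for Smoc2. C1ql2, a secreted C1q-like protein that organizes mossy fibre synapses, ranged from 10.80 to 11.94 (median 11.31) in hippocampus and from 7.39 to 8.54 (median 7.92) in amygdala. It was seen on every array and was 10.1-fold higher in hippocampus.

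Of the 8 tested genes on a list of dentate gyrus markers, 7 were higher in hippocampus and 0 in amygdala, with a median difference of 2.57. Over all 7236 tested genes, taken with 1 probe per gene, 4.62% were higher in hippocampus and 4.92% in amygdala, with a median difference of 0.0108. Members of this and the later lists were chosen with earlier results of these data known, so their counts are descriptions and not tests. Besides Smoc2 and C1ql2, the 7 dentate genes higher in hippocampus included Rasl10a, a small Ras-like GTPase, which differed by 3.13 ± 0.27. Prox1, the homeodomain factor that keeps granule cells in their fate, was at 8.26 to 9.71 (median 8.73) in hippocampus and 6.36 to 7.91 (median 6.88) in amygdala, a 4.04-fold difference without overlap. All 8 tested dentate genes were detected on each of the 9 hippocampus arrays. Of 15 dentate markers with a probe, the other 7 were below the detection filter. Of those, named after their values were seen, Btg2, Calb1, Pdzd2, Stxbp6, Tdo2 and Trpc6 were detected on 0 hippocampus arrays and C1ql3 on 2.

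Transcription factors of cortical glutamatergic neurons followed the same direction. Of 24 tested, 12 were higher in hippocampus and 1 in amygdala, with a median difference of 0.85. Fezf2, a zinc finger factor of deep-layer projection neurons, differed by 2.53 ± 0.27 and Zbtb18, a zinc finger repressor required for cortical neuron differentiation, by 2.19 ± 0.28, both without overlap of the arrays. Tbr1, a T-box factor of glutamatergic neurons, differed by 1.23 ± 0.19. Cux1, a homeodomain factor of upper cortical layers, was the member higher in amygdala, with levels of 6.85 to 7.58 (median 7.38) in hippocampus and 7.74 to 8.43 (median 8.22) in amygdala (difference -0.85 ± 0.13). On a list of neocortex and claustrum genes, which stand for tissue beside the punches, 4 of 7 were higher in hippocampus and 1 in amygdala, and the 4 were Fezf2, Nr4a2, Tbr1 and Gng2. Of these 7 genes, 4 are also among the 24 transcription factors, Fezf2, Nr4a2 and Tbr1 included, so the lists are not independent. The summed level of the neocortex and claustrum list was 11.48 to 12.25 in hippocampus and 11.34 to 11.98 in amygdala, which overlapped. Bright members weigh most in such a sum, among them Lamp5, the member higher in amygdala (mean 10.21 in hippocampus and 11.21 in amygdala). The part of this list in these results was not tested.

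Markers of the CA fields were mixed. For CA3 and CA2, 7 of 15 tested genes were higher in hippocampus and 1 in amygdala, with a median difference of 0.782. Homer3, a postsynaptic scaffold protein, differed by 2.82 ± 0.24, Bok, a member of the BCL2 family, by 1.96 ± 0.22 and Tgfb2, a growth factor, by 1.90 ± 0.18. Nptx1, a secreted pentraxin that gathers AMPA receptors, was detected on 6 of 9 hippocampus arrays and ranged from 4.62 to 8.54 there, and its difference of 2.03 ± 0.50 became 2.91 without the 4 arrays with under 7500 detected probes. Its adjusted p was 0.0079 and rose to as much as 0.0181 when 1 array was left out, other than hippocampus replicates 4, 5 and 6. The member higher in amygdala was Ptpn5, a striatum-enriched tyrosine phosphatase (-1.39 ± 0.18). For CA1 and subiculum, 4 of 12 were higher in hippocampus and 3 in amygdala. Cpne6, a calcium-dependent membrane-binding copine, was at 12.66 to 13.65 (median 13.32) in hippocampus and 11.17 to 11.94 (median 11.54) in amygdala, and Fibcd1 and Crym were also higher in hippocampus. The 3 that were higher in amygdala, Nts, Wfs1 and Dlk1, are all on the list of central amygdala markers too.

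Among genes of glutamate release and reception, calls went in both directions. Slc17a7 encodes the vesicular glutamate transporter VGLUT1, which loads glutamate into vesicles of cortical and hippocampal neurons. Its levels were 11.03 to 12.91 (median 12.15) in hippocampus and 7.22 to 9.84 (median 8.64) in amygdala. This was a 10.9-fold difference (3.45 ± 0.33, adjusted p = 3.004e-07) without overlap. The other tested transporter, Slc17a6, which encodes VGLUT2 and is abundant in thalamus, had a difference of 1.07 ± 0.36 that missed the threshold (adjusted p = 0.052), at 1.78 within lot 1 and 0.28 within lot 2. Among postsynaptic kinases and scaffolds, 6 of 18 were higher in hippocampus and 1 in amygdala. Camk2a, the alpha subunit of the calcium/calmodulin-dependent kinase of glutamatergic synapses, was at 12.24 to 13.25 (median 12.94) against 10.74 to 11.45 (median 10.86) and 3.74-fold higher in hippocampus. Camk2d, the delta subunit of the same kinase, went the other way (-1.46 ± 0.30). It was detected on 3 of 9 hippocampus and 7 of 8 amygdala arrays, near the background, and the arrays overlapped. Of 7 ionotropic receptor subunits tested, Grik4, a kainate receptor subunit, was the only one past the threshold (0.78 ± 0.19), and leaving out any array other than hippocampus replicates 1, 2, 3 and 6 and amygdala replicate 8 raised its adjusted p above 0.01, to at most 0.0165. Of 3 metabotropic receptors tested, Grm8, which sits on presynaptic terminals, was higher in amygdala (-1.43 ± 0.30). Grm8 was likewise near the background, detected on 2 of 9 hippocampus and 6 of 8 amygdala arrays, with overlap.

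Of 25 synaptic vesicle and SNARE genes, 4 were higher in hippocampus, Syt13, Sv2b and Stx1a among them, and Rab3b, a small GTPase of secretory vesicles, was higher in amygdala. Syt13, a member of the synaptotagmin family, differed by 1.36 on the log2 scale. Without the 4 arrays with under 7500 detected probes, Sv2b and Stx1a had adjusted p-values of 0.0176 and 0.017. Of 19 growth factors and receptors, 5 were higher in hippocampus and 0 in amygdala. Fgf10, a fibroblast growth factor, was at 8.79 to 9.71 (median 9.22) in hippocampus and 5.21 to 6.18 (median 5.78) in amygdala, an 11.4-fold difference (3.51 ± 0.16). Nrn1 encodes neuritin, an activity-regulated protein of the cell surface that promotes neurite growth, and was 11.7-fold higher, with 11.63 to 12.35 in hippocampus against 7.67 to 9.51.

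Several leading hippocampal genes belong to none of these groups. Tnnt1, the slow skeletal muscle troponin T, was at 9.27 to 11.13 (median 10.05) in hippocampus and 5.74 to 7.06 (median 6.31) in amygdala and differed 13.8-fold. Slc26a4, the anion exchanger pendrin, differed by 3.30 ± 0.21, Tmem114, a transmembrane protein, by 3.23 ± 0.21 and Mas1, a receptor for an angiotensin fragment, by 3.16 ± 0.20, each without overlap. Of 13 immediate early genes, which neurons switch on after activity, 3 were higher in hippocampus and 0 in amygdala. Jun, a subunit of the AP-1 transcription factor, was at 7.76 to 8.72 (median 8.42) in hippocampus and 5.87 to 6.49 (median 6.05) in amygdala (2.23 ± 0.15), and Nr4a2 and Fosl2 were the others. Of 11 cadherins and protocadherins, Pcdh20 (2.49 ± 0.17) and Cdhr1 were higher in hippocampus and Cdh13 and Pcdh10 in amygdala.

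**Figure D2:**
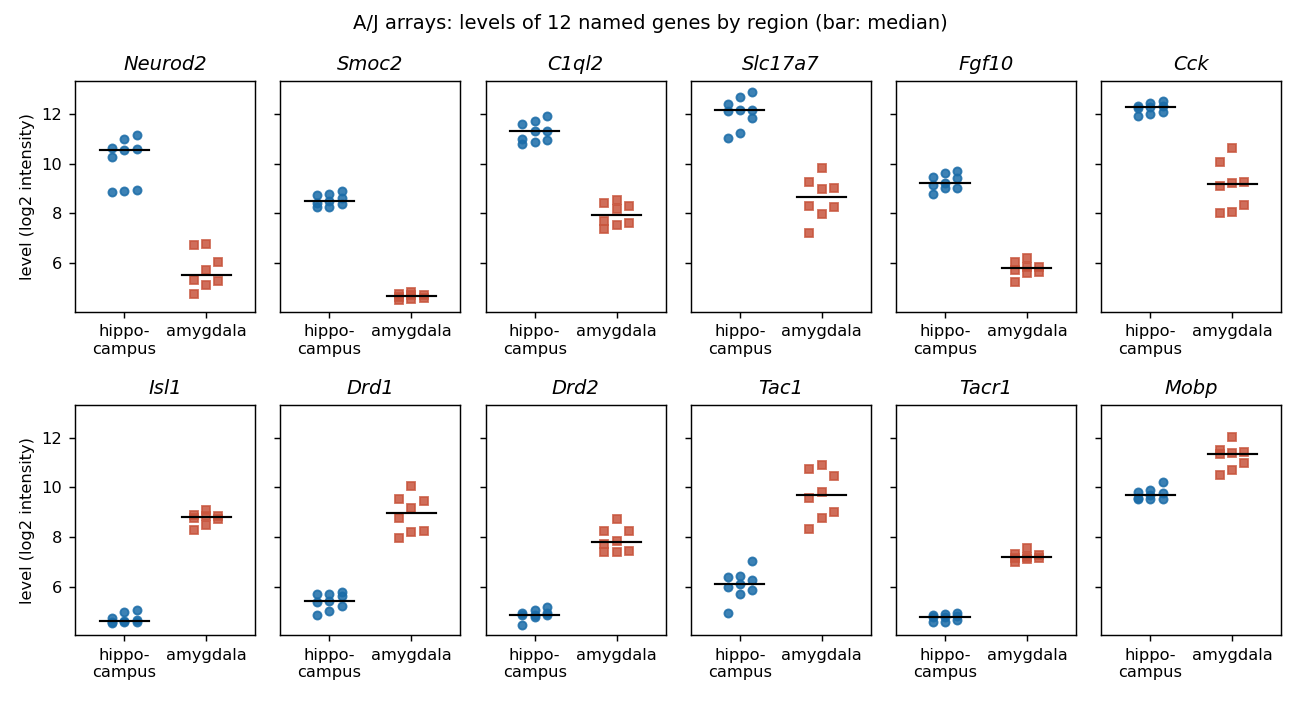
Levels (log2 intensity, y axis) of 12 genes are shown on each of the 9 hippocampus arrays (blue circles) and 8 amygdala arrays (red squares), with a bar at the median of each region. In each of the 12 panels the arrays of the regions do not overlap, with the genes higher in hippocampus in the upper row and those higher in amygdala in the lower row.

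Ido1, which degrades tryptophan, was detected on all 8 amygdala arrays at 8.23 to 10.18 (median 8.68) and on none of the hippocampus arrays. It was at least 10.4-fold higher in amygdala. Isl1, a LIM homeodomain transcription factor of striatal and central amygdala neurons, was likewise detected on 8 and 0 arrays, at 8.29 to 9.10 (median 8.82) in amygdala, and was at least 8.34-fold higher. Ecel1, a membrane metallopeptidase of neurons, was at 8.88 to 10.11 (median 9.62) in amygdala and 4.44 to 6.19 (median 5.26) in hippocampus, where 5 of 9 arrays detected it (difference -4.31 ± 0.24). The size of such differences holds values near the background. Chosen after its values were seen, probe ILMN_1215624, which has no gene name in the tables used here, had the largest difference of all (-5.74 ± 0.31), at 10.78 to 13.52 (median 11.86) in amygdala and 5.10 to 7.05 (median 6.31) in hippocampus.

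Of 18 tested central amygdala markers, 16 were higher in amygdala and 0 in hippocampus, with a median difference of -2.34, and without the 4 arrays with under 7500 detected probes 15 were. This list too was chosen with earlier results of these data known, so the count describes its members and is no test. Of the 18 genes, 3 are also on the list of striatal-type dopamine signalling genes and 4 are neuropeptide precursors. The 2 that did not pass, named after their values were seen, were Ezr (-0.07 ± 0.13) and Prkcd, a protein kinase C that marks a group of central amygdala neurons and is also abundant in thalamus (1.04 ± 0.29, adjusted p = 0.0178). The summed level of the central amygdala list was 12.59 to 13.07 in hippocampus and 14.08 to 14.64 in amygdala. Basolateral and cortical amygdala markers did not follow: 3 of 15 were higher in amygdala (Cyp26b1, Otof and Cdh13) and 3 in hippocampus (Fezf2, Kit and Rspo3). Their summed levels overlapped, at 13.70 to 14.39 and 13.60 to 14.37. A sum of intensities is set mostly by its brightest member, here Cplx1 (mean 13.5 in hippocampus and 13.3 in amygdala), so this overlap says little about the others. Of 12 medial amygdala and steroid-sensitive genes, 6 were higher in amygdala and 0 in hippocampus, with Cartpt, Dlk1, Ahi1 and Gal among them. Cartpt, Gal and Trh of the medial list are also hypothalamus markers. Below the detection filter were 4 central and 7 medial markers. Of these, named after their values were seen, Calcrl, Crh, Cckar, Lhx9, Nr3c1, Pgr and Ucn3 were detected on 0 amygdala arrays, Htr2a, Esr1 and Esr2 on 1 each and Penk on 7.

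Dopamine signalling genes that are typical of striatal projection neurons were higher in amygdala for 13 of 14 tested, with a median difference of -1.86, and 0 were higher in hippocampus. Drd1, the dopamine receptor of the direct pathway, was at 7.94 to 10.04 (median 8.96) in amygdala and 4.86 to 5.79 (median 5.42) in hippocampus, where 5 of 9 arrays detected it. Drd2, the receptor of the indirect pathway, was at 7.39 to 8.72 (median 7.79) in amygdala and detected on none of the hippocampus arrays, so that it was at least 4.55-fold higher. Rgs9, which ends dopamine receptor signalling by speeding up GTP hydrolysis, was detected on every array, at 9.82 to 12.66 (median 11.27) in amygdala and 6.57 to 7.59 (median 7.17) in hippocampus, and was 18.4-fold higher in amygdala. Ppp1r1b, a phosphatase inhibitor regulated by dopamine, differed by -3.08 ± 0.31. For Drd1, Rgs9 and Ppp1r1b the amygdala arrays spread over more than a 3-fold range, but none of them came down to the hippocampus arrays.

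A list of striatum markers stood for the striatal tissue that borders the amygdala. Of its 3 tested genes, Ido1, Rgs9 and Drd2, all were higher in amygdala, but Rgs9 and Drd2 are also on the dopamine list and Drd2 is on that of the central amygdala, so the lists are not independent. Ido1 and Drd2 were undetected in hippocampus, passed the detection filter through amygdala alone and had to differ. Over the 3 genes, the summed level was 10.47 to 12.97 (median 11.59) in amygdala and 7.21 to 7.89 (median 7.67) in hippocampus. Of the defining markers below the detection filter, Gpr6 was detected on 4 amygdala arrays and Rarb on 6, against 0 and 1 hippocampus arrays, and Six3 on none in either region. The part of striatal tissue in these differences was not tested.

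Transcription factors of the ventral forebrain were higher in amygdala for 7 of 17 tested and in hippocampus for 0, with a median difference of -0.657. Besides Isl1 these included Rxrg, a retinoid X receptor detected on 3 of 9 hippocampus arrays (-3.05 ± 0.22), Meis2, a TALE homeodomain factor (-2.65 ± 0.17), and Dlx6, a homeodomain factor of GABAergic neurons (-2.57 ± 0.24). Meis2 was at 7.25 to 8.63 (median 7.89) in amygdala and 4.78 to 5.34 (median 5.23) in hippocampus, where 2 of 9 arrays detected it. Retinoid genes overlap this group through Rxrg, and 3 of 5 were higher in amygdala. Cyp26b1, which breaks down retinoic acid, was at 10.19 to 11.40 (median 11.06) in amygdala and 7.84 to 9.66 (median 8.18) in hippocampus, a 5.70-fold difference, and Crabp1, a cytoplasmic retinoic acid binding protein, was detected on 8 amygdala and 0 hippocampus arrays and was at least 1.92-fold higher.

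Of 6 tested genes of GABA synthesis, release and uptake, 2 were higher in amygdala and 1 in hippocampus. Slc32a1, the vesicular GABA transporter, was at 12.64 to 13.48 (median 13.35) in amygdala and 10.79 to 11.68 (median 11.25) in hippocampus, a 3.92-fold difference without overlap (adjusted p = 3.051e-08). Gad1, which makes GABA from glutamate, was 2.30-fold higher in amygdala, at 11.82 to 13.03 against 10.82 to 11.82, with the arrays of the regions meeting at the edge. The gene higher in hippocampus, Slc6a13, differed by 1.6 ± 0.35 and encodes a GABA transporter of meningeal cells. Of 4 GABA-A receptor subunits tested, Gabrg1 was higher in amygdala, where 8 arrays detected it against 0 hippocampus arrays, by at least 2.54-fold. Gabrg1 passed the detection filter through amygdala alone and had to differ.

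**Figure D3:**
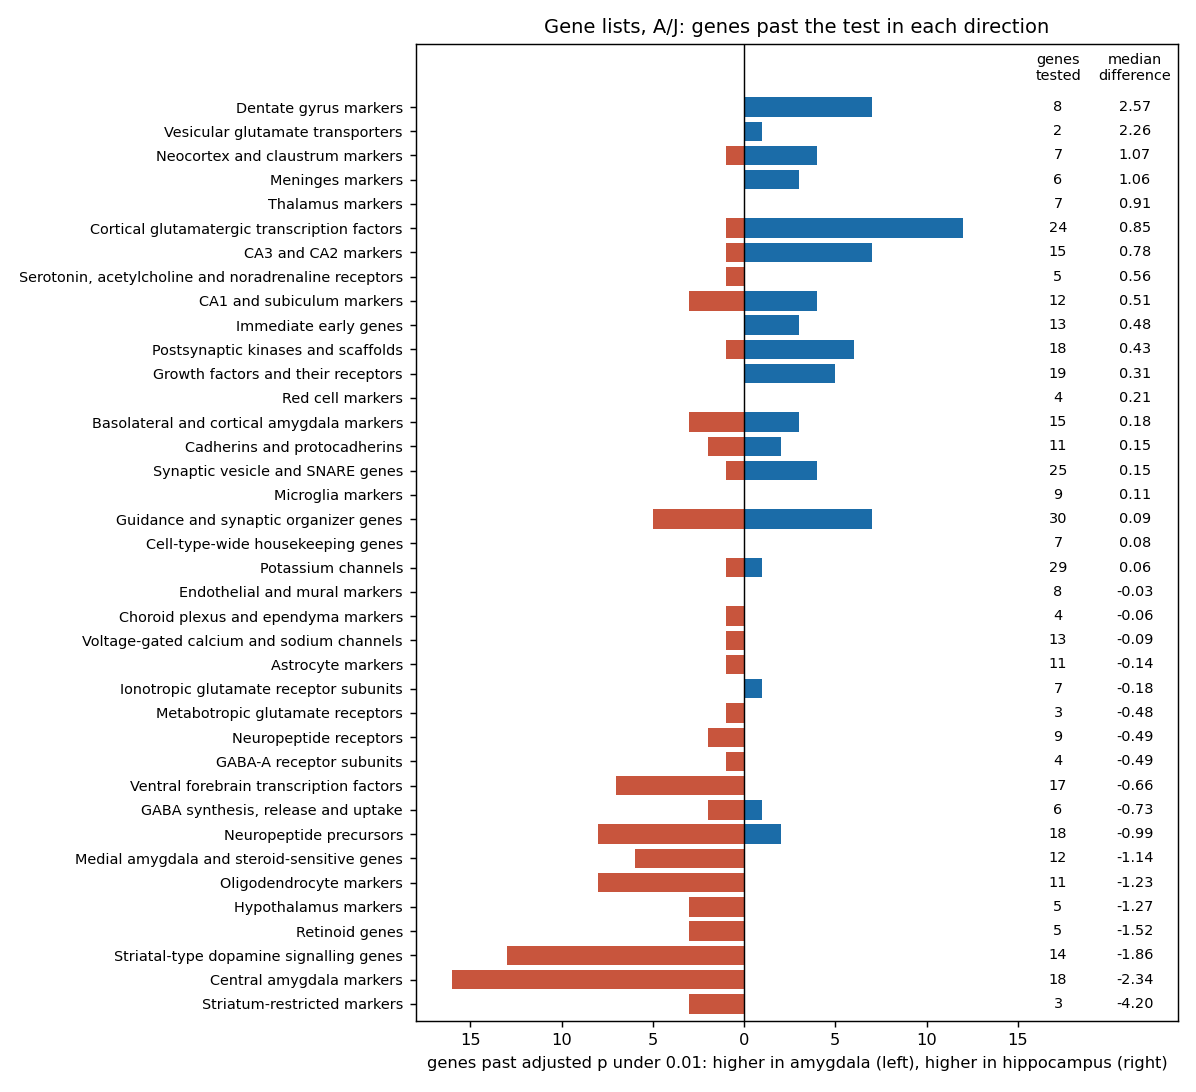
Bars give, for each gene list, the number of tested genes past an adjusted p of 0.01 that were higher in amygdala (red, to the left) or in hippocampus (blue, to the right), with the genes tested and the median difference (log2) at the right. Lists run from dentate gyrus markers (7 of 8 higher in hippocampus) to central amygdala markers (16 of 18 higher in amygdala) and the 3 striatum-restricted markers.

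Neuropeptides divided between the regions. Of 18 tested precursors, 8 were higher in amygdala and 2 in hippocampus, with a median difference of -0.993, and without the 4 arrays with under 7500 detected probes 6 and 2 were. Tac1, the precursor of substance P, was at 8.31 to 10.90 (median 9.69) in amygdala and 4.93 to 7.03 (median 6.09) in hippocampus and differed 12.3-fold without overlap. Tac2, the precursor of neurokinin B, ranged more widely, from 6.38 to 10.65 (median 8.88) in amygdala and from 5.14 to 7.0 (median 5.81) in hippocampus, and its arrays overlapped (-2.96 ± 0.45). Cartpt, a feeding and stress peptide precursor, differed by -2.52 ± 0.36 and Nts, the neurotensin precursor, by -2.18 ± 0.40, both without overlap. Cck, the cholecystokinin precursor, was the opposite, at 11.92 to 12.53 (median 12.28) in hippocampus and 8.01 to 10.64 (median 9.17) in amygdala, and was 8.85-fold higher in hippocampus. Cort, the precursor of the somatostatin-like peptide cortistatin, was also higher in hippocampus (1.52 ± 0.29, and 1.08 without the 4 arrays with under 7500 detected probes). It was detected on 3 of 8 amygdala arrays, near the background, and the arrays overlapped. Peptides below the filter, named after their values were seen, were Penk, the enkephalin precursor, detected on 7 amygdala and 0 hippocampus arrays, Avp, the vasopressin precursor, on 6 and 0, and Crh, the corticotropin-releasing hormone precursor, on 0 and 0.

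Of 30 receptors for neuropeptides with a probe, 9 passed the detection filter, against 9193 of 24620 probes in all, and 2 of the 9 were higher in amygdala and 0 in hippocampus. Tacr1, the substance P receptor, was at 7.01 to 7.55 (median 7.18) in amygdala and undetected on all hippocampus arrays, which gave at least a 2.89-fold difference. Tacr1 passed the detection filter through amygdala alone and had to differ. Cckbr, the brain receptor of cholecystokinin, was 1.78-fold higher in amygdala, at 8.11 to 8.67 against 6.78 to 8.03, opposite in direction to Cck itself, and its adjusted p rose above 0.01, to at most 0.0129, without amygdala replicate 1, 6 or 8 or hippocampus replicate 8. Among 5 monoamine and acetylcholine receptors tested, Htr1d, an inhibitory serotonin receptor, was higher in amygdala by at least 3.74-fold. With 8 amygdala and 0 hippocampus arrays detecting it, Htr1d also had to differ.

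Axon guidance genes and synaptic organizers were found on both sides, 7 of 30 higher in hippocampus and 5 in amygdala. Sema3a, a secreted repellent of growing axons, was at 7.74 to 8.57 (median 7.98) in amygdala and 4.99 to 5.54 (median 5.04) in hippocampus, where 3 of 9 arrays detected it (-2.86 ± 0.13). Sema3f of the same family differed by -2.49 ± 0.30, and Efna5, an ephrin, by -1.58 ± 0.22. Cbln4, a secreted cerebellin, was also higher in amygdala (-1.32 ± 0.14), whereas its relative C1ql2 was higher in hippocampus. Slit1, a secreted guidance cue (2.03 ± 0.25), Sema5a (1.76 ± 0.25) and Ntng1, a netrin-G anchored in the membrane (1.72 ± 0.27), were higher in hippocampus. Among ion channels the shares past the threshold were near or under those over all tested genes (4.62% and 4.92%). Of 29 potassium channel genes, Kcnab2 was higher in hippocampus (3.45%) and Kcna6 in amygdala (3.45%). Of 13 calcium and sodium channel genes Cacna2d2 (7.69%), an auxiliary calcium channel subunit, was 7.35-fold higher in amygdala.

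Further leading amygdala genes were outside the lists. Vat1l differed by -3.55 ± 0.19, with 10.67 to 11.72 in amygdala and 7.29 to 8.24 in hippocampus. Myh7, a myosin heavy chain of slow and cardiac muscle, differed by -3.20 ± 0.32. Slc5a7, the choline transporter of cholinergic terminals, and Dgkk, a diacylglycerol kinase, were detected on 8 amygdala and 0 hippocampus arrays and were at least 4.08-fold and 6.70-fold higher in amygdala.

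Of 11 oligodendrocyte markers, 8 were higher in amygdala and 0 in hippocampus, with a median difference of -1.23, and without the 4 arrays with under 7500 detected probes 7 were. Their summed level was 14.99 to 15.97 (median 15.62) in amygdala and 13.64 to 15.12 (median 14.55) in hippocampus, which overlapped at the edge. Mobp, a myelin protein, was at 10.52 to 12.05 (median 11.36) in amygdala and 9.52 to 10.21 (median 9.70) in hippocampus (-1.51 ± 0.18). Mal (-1.49 ± 0.19), Ugt8a, which makes myelin galactolipids (-1.90 ± 0.40), and Mog (-1.45 ± 0.37, adjusted p = 0.0098, 0.0273 without those arrays) were higher too, while Mbp, myelin basic protein, missed the threshold (-1.03 ± 0.31, adjusted p = 0.0331). The part of white matter in the other differences was not tested.

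Meninges markers were higher in hippocampus for 3 of 6 genes (Slc6a13, Dcn and Islr) and in amygdala for 0. Their summed level was 12.12 to 13.43 in hippocampus and 11 to 12.15 in amygdala, which overlapped at the edge, and their part was not tested. Of 12 meninges markers with a probe, the other 6 were below the detection filter. Of those, named after their values were seen, Col1a1, Col1a2, Col3a1, Lum and Ogn were detected on 0 arrays of either region and Aldh1a2 on 1 amygdala array. Of 7 thalamus markers none passed, but their median difference was 0.91, towards hippocampus. The summed levels overlapped, at 11.33 to 13.05 (median 12.32) in hippocampus and 10.50 to 12.02 (median 11.59) in amygdala, and their part was not tested. Of 5 hypothalamus markers 3 (Cartpt, Gal and Trh) were higher in amygdala, and all 3 are also on the medial amygdala list. The summed levels of the 5 were 9.05 to 11.37 in amygdala against 7.47 to 9.04, which met at the edge. Of those below the detection filter, named after their values were seen, Avp was detected on 6 amygdala arrays, Hcrt on 2 and Pomc and Hdc on 0. Each of them was detected on 0 hippocampus arrays. Gal lost its call when any array other than amygdala replicates 4 and 7 was left out (adjusted p up to 0.0177) and without the 4 arrays with under 7500 detected probes (0.0423). Of 4 choroid plexus and ependyma markers Clic6, a chloride channel protein, was higher in amygdala (-2.44 ± 0.38), while Ttr, the transthyretin of choroid plexus, ranged from 5.58 to 13.78 in hippocampus and from 5.91 to 13.31 in amygdala. Ttr levels therefore differed more among the arrays of a region than between regions.

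Few markers of the remaining types passed. Of 11 astrocyte markers Agt was the only one past the threshold (-1.11 ± 0.26, adjusted p = 0.0053, 0.022 without the 4 arrays with under 7500 detected probes), and Gja1, an astrocyte gap junction protein, had a difference of -0.35 ± 0.14. None of 9 microglia, 8 endothelial and mural or 4 red cell markers passed, with differences of 0.18 ± 0.24 for C1qc, 0.09 ± 0.26 for Cldn5 and 0.21 ± 0.27 for Hba-a1. None of 7 housekeeping genes passed either.

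**Figure D4:**
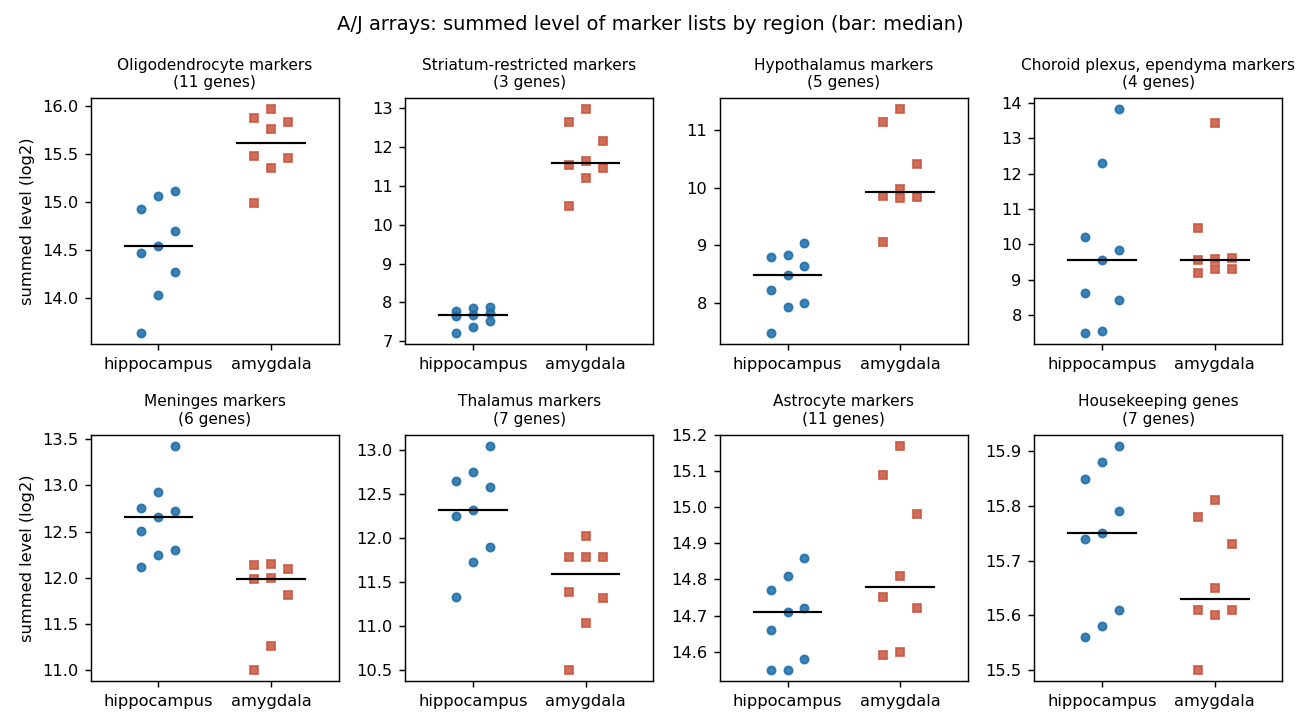
The log2 of the summed intensity of 8 marker lists (y axis, own scale in each panel) is shown on each of the 9 hippocampus arrays (blue circles) and 8 amygdala arrays (red squares), with a bar at the median. Striatum-restricted markers (7.21 to 7.89 against 10.47 to 12.97) did not overlap between the regions. Hypothalamus markers (7.47 to 9.04 against 9.05 to 11.37) met at the edge, and oligodendrocyte and meninges markers overlapped at the edge. Astrocyte and housekeeping genes overlapped widely.

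C57BL/6J mice of the same age, sex and housing served to see where the A/J difference was particular to the strain. In a fit of their own 18 arrays, 482 of 8723 probes passed (5.53%), 291 (3.34%) higher in hippocampus and 191 (2.19%) in amygdala. Of the 772 probes that passed in A/J, 737 were also tested in C57BL/6J, 717 of these had the same direction and 360 passed there in that direction, while 0 passed in the opposite one. The 360 probes are 46.6% of the A/J calls and 74.7% of the C57BL/6J calls. The difference between the strains itself was tested in a joint fit of 35 arrays, and 7 of 9511 probes (0.0736%) passed (763 at an unadjusted p below 0.05).

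Fgf10 was higher in hippocampus in both strains but more so in A/J, by 3.46 against 1.65 in the joint fit, and the strains differed by 1.81 ± 0.28 (adjusted p = 0.00041). Baiap2l1, an actin-binding adaptor protein, was higher in A/J hippocampus (1.48) and not in C57BL/6J (-0.05). The Baiap2l1 probe was detected on fewer than 8 C57BL/6J arrays and was not tested in the fit of that strain, so its values there lie near the background. In A/J it was detected on 8 hippocampus and 2 amygdala arrays. Krt9, a keratin, was at -0.99 in A/J and 0.55 in C57BL/6J. Zfhx3, a homeodomain and zinc finger factor of the ventral forebrain list that the naming rule leaves out, was at -2.27 in A/J and 0.05 in C57BL/6J (adjusted p of the difference 0.0053), while for its other tested probe the strains differed by -1.41 ± 0.45 (adjusted p = 0.31). Lypd1, a membrane-anchored modulator of nicotinic receptors, was near even in A/J (-0.07) and higher in amygdala of C57BL/6J (-1.39). The strains shared the direction at most probes called in A/J, and these 5 genes differed in size or direction by the joint fit. With median scaling the strain difference of Baiap2l1 had an adjusted p of 0.071 and that of Lypd1 one of 0.999, and Zfhx3 did not pass either. Arsj and Iyd also passed but were not among the probes tested within A/J, where Arsj was undetected on all 17 arrays and Iyd was detected on 7 hippocampus and 0 amygdala arrays. Base differences between A/J and the probe sequences can lower signals, and their part in these strain differences was not tested.

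**Figure D5:**
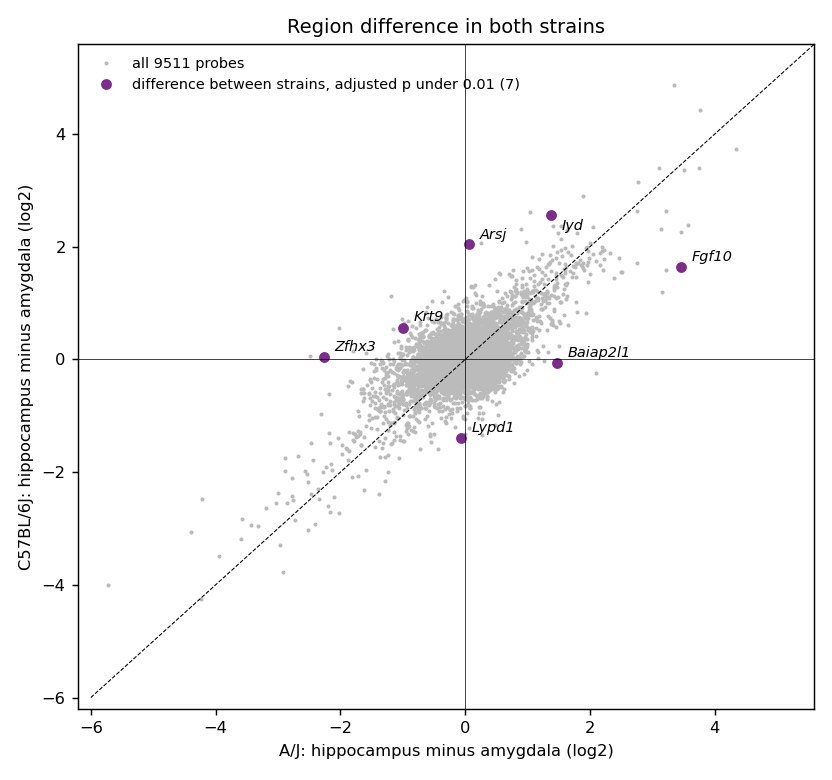
The region difference (hippocampus minus amygdala, log2) in C57BL/6J (y axis) is plotted against that in A/J (x axis) for the 9511 probes of the joint fit, with a dashed line where both are equal. The 7 purple probes are those whose difference between strains passed an adjusted p of 0.01, and Fgf10 lies to the right of the line at 3.46 and 1.65.

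Neurod2 had the largest difference on the hippocampal side, and promoters of the genes that differed over 2-fold were searched for the E-box CAGATG, a sequence that NeuroD-type factors bind. Sequences are from RefSeq (build GRCm38.p6), and 250 bases before each start were read on both strands (CAGATG or CATCTG). The E-box was found for 22 of 144 hippocampus-high genes with a promoter (15.3%) and 30 of 171 amygdala-high genes (17.5%), against 12.2% of 5901 tested genes and 16.3% of all 27025 genes in the table. These shares lie close together, and a match is only a description of the letters. Windows of 30 bases are shown for genes of both sides to let the sites be compared, 5′ to 3′ on the strand of the gene, with the E-box in capitals.
Neurod2 (higher in hippocampus, chr11:98329746-98329775, minus strand): agtagagagtgaCAGATGgcggcgggtccc
Prox1 (higher in hippocampus, chr1:190170989-190171018, minus strand): gcacaacgcccgCAGATGgctcgcggcggc
Cck (higher in hippocampus, chr9:121495707-121495736, minus strand): gcactgggtaaaCAGATGactggctgcgaa
Rgs9 (higher in amygdala, chr11:109298325-109298354, minus strand): cacaccttggggCAGATGctctagcttcag
Tac1 (higher in amygdala, chr6:7554876-7554905, plus strand): cacaatttggtcCAGATGttatggactccg
Cartpt also held the cAMP response element TGACGTCA (its own reverse complement) at chr13:99900777-99900806, minus strand, in the window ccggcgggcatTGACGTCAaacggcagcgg. That element was found for 2 amygdala-high genes (1.17%) and 1 hippocampus-high gene (0.694%), against 3.02% of tested genes and 1.77% of all genes. A homeodomain core (TAATTA) was searched too. It was found for 5.26% of amygdala-high and 4.17% of hippocampus-high genes, against 2.88% of tested genes and 5.65% of all genes.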

How the data were processed

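Total RNA of A/J hippocampus (9 samples) and amygdala (8) was measured on Illumina MouseRef-8 arrays. The authors extracted the signals with BeadStudio and deposited linear intensity values, from which the mean of negative control beads was subtracted, with a detection score (1 minus the detection p-value). According to the methods, the authors made the deposited log2 values with Lumi (variance stabilization and robust spline), and these served as an alternative. Here the intensities of the 17 arrays went through neqc of limma 3.58.1 in R 4.3.3 (normexp background correction, offset 16, quantile normalization, log2). Probes detected at p below 0.01 on at least 8 arrays were tested with lmFit and eBayes (Benjamini-Hochberg, threshold 0.01), after the script was tested on simulated data with known changes. The number of arrays limits the precision, and p-values measure the spread between these samples. Gene lists used the tested probe with the highest mean of each gene. Alternatives were other values, scalings, filters, blocks and weights and the omission of arrays.

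Of all probes 20984 had 1 symbol, 1 several and 3635 none, of which 86 were named through the study's probe tables, and 12 probes were renamed. Of 866 genes with at least 2 tested probes, 25 had at least 2 past the threshold, 0 passed in both directions and 45 had probes of which only some passed. Named genes were the 12 with the largest difference in each direction among those past the threshold without overlap, up to 4 per direction of each list, the gene with the highest mean of each list of other cell types, and up to 6 whose difference depended on strain. Some genes that this rule names are not reported here. Members and lists were chosen with earlier results of these data known. No A/J array was left out, and no arrays held identical values.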

Additional observations from a re-analysis of the deposited data

Results flagged for a closer look

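Within the regions, 222 groups of arrays were tested for a sample far from the others, for the named genes, and 13 had one. Chance marks about 1 in 20 such groups. In hippocampus, replicate 1 was lowest for Mas1 (9.08, next 9.65), replicate 3 highest for Ido1 (4.83, next 4.62), replicate 6 highest for Slc5a7 (4.79, next 4.65) and replicate 8 lowest for Baiap2l1 (5.50). Hippocampus replicate 5, with 6510 detected probes, was highest for Crabp1 (6.26, next 5.22). In amygdala, replicate 5 was highest for Sema3a (8.57, next 8.07) and lowest for Lamp5 (10.4, next 11.1). Replicate 3 of amygdala, with 6549 detected probes, was lowest for Rasl10a (5.05, next 6.27), Ntng1 (5.57, next 6.88) and Mbp (13.5, next 14.2). Replicate 4 was lowest for Tbr1 (4.65, next 5.62) and highest for Baiap2l1 (5.74, next 5.21), and replicate 8 was highest for Grik4 (6.38, next 5.74).

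The region difference of 6 named genes differed between the strains by limma's interaction test. As A/J minus C57BL/6J, the values were -1.99 ± 0.20 for Arsj (adjusted p = 7.38e-08), 1.53 ± 0.21 for Baiap2l1 (9.05e-05), -1.55 ± 0.23 for Krt9 (0.00029), 1.81 ± 0.28 for Fgf10 (0.00041), -1.18 ± 0.18 for Iyd (0.00041) and 1.31 ± 0.22 for Lypd1 (0.0016).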

How the results depend on the processing

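Of the 772 probes past the threshold, 0 had the opposite sign under any alternative. Median scaling in place of quantile normalization gave 303 probes, 146 higher in hippocampus and 157 in amygdala, of which 281 were among the 772. Array weights gave 2812 (1382 and 1430), of which 767 were. Within lot 1 there were 151 (83 and 68) and within lot 2 there were 205 (104 and 101), but no chip of lot 2 held both regions. With the chip as a random block (correlation within a chip 0.421) there were 879, of which 749 were among the 772. Chosen after seeing the data, the 8 arrays on chips that hold both regions, with the chip as a block, gave 104 (59 and 45), and leaving out the 4 arrays with under 7500 detected probes gave 791. With detection required on all 17 arrays there were 527, 270 higher in hippocampus and 257 in amygdala, of which 474 were among the 772. The other settings gave between 640 (the authors' log2 values) and 1130 (the number of detected probes as a covariate), and leaving out 1 array gave 626 to 863. The authors' values also gave smaller differences for many named genes, such as -0.44 for Isl1, -0.65 for Ido1 and -0.13 for Tacr1. For the bright Camk2a and Slc32a1 they gave 1.99 and -2.08, against 1.90 and -1.97 here. Fold sizes therefore depend on the processing.

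Of 104 named genes past the threshold, 52 were called in the same direction with detection on all 17 arrays, which removes genes seen in 1 region only, 58 within lot 1, 59 within lot 2 and 45 on the chips with both regions. Leaving out 1 array kept 96 to 102. The calls that an omitted array ended were those of Agt, Cckbr, Gal, Grik4, Kcna6, Mog, Nptx1, Nrgn, Pcdh10 and Stx1a, with adjusted p-values of at most 0.025. Genes not past the threshold changed sign as follows. Lypd1 was at 0.016 with median scaling. Cldn5 was at -0.073 without the 4 arrays and at -0.025 to 0.22 with 1 array left out. Ttr was at -0.12 on the chips with both regions. The causes were not tested. The strain interaction called 7 probes. The authors' values gave 5, of which 4 were among the 7, without Iyd (adjusted p 0.0401), Lypd1 (0.0335) and Zfhx3. Median scaling gave 5, of which 3 were among the 7, without Lypd1 (0.999), Baiap2l1 (0.071), Iyd (0.193) and Zfhx3. No paired analysis was possible because the replicate numbers follow the order of the samples and no label ties a hippocampus sample to an amygdala sample.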
